A study of Saccharomyces cerevisiae with 6 samples.

Results

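APJ1 (YNL077W), YDJ1 (YNL064C), SIS1 (YNL007C), FES1 (YBR101C), BTN2 (YGR142W) and CUR1 (YPR158W) are 6 budding yeast genes for J-proteins, an Hsp70 exchange factor and sorting factors of misfolded protein. They were chosen by locus out of 5667 S. cerevisiae loci on the arrays, with the heat differences and the differences from the control on these same arrays already known. All 6 were measured, each by 1 probe set that matches a single transcript, and all 6 lay at least 4.42 above the background floor on every array, on the log2 scale. The values below therefore describe these genes, and no test was made on them.

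J-proteins, also called Hsp40s, bring unfolded proteins to Hsp70 chaperones and stimulate their ATPase. Ydj1 and Sis1 are the main J-proteins of the yeast cytosol, and Apj1 is a less abundant relative of Ydj1. Fes1 is a nucleotide exchange factor that lets cytosolic Hsp70 release its ADP and its substrate. Btn2 and Cur1 are related in sequence and direct misfolded proteins to deposit sites, Cur1 by way of Sis1 and the nucleus, and their overproduction cures cells of the prion [URE3]. Heat shock raises the transcription of many genes of this network through the transcription factor Hsf1. Mex67, the receptor that takes mRNA through the nuclear pore, and Npl3, an SR-like protein that binds nascent mRNA, are the proteins whose bound RNA was measured.

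RNA was co-precipitated from UV-crosslinked cells grown in rich medium, split and held for 30 min at 42 °C or 25 °C, and each precipitate was hybridised to 1 array. The groups were a Mex67 precipitate from strain HKY1266, an Npl3 precipitate from strain HKY157 and a no tag control whose label names strains HKY36 and HKY381, each at both temperatures, which makes 6 groups of 1 array. Per the labels, lysates went onto c-myc antibody beads and GFP-Trap beads; how the 2 bead types were divided over the samples, which tag each strain carries and whether the no tag strains were pooled are not given. The comparison asks which mRNAs travel with Mex67 and Npl3 in growing and in heat-stressed cells. With 1 array a group, there is no error within a group and no p-value is given, so which neighbouring values differ beyond their spread cannot be said. Arrays of total RNA were not used here, so more of an mRNA in the cells and a larger share of it in a precipitate cannot be told apart, nor can more responding cells and more RNA per cell.

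The deposited values are log2 values normalized between arrays, so every difference is relative to the other RNAs of the same array. Array columns are marked S and US, read here as stressed (42 °C) and unstressed (25 °C). In all 3 precipitates the S array had the higher value for each of the 6 genes and for HSP26, a small heat shock protein, and the direction of heat differences rests on that reading. Medians of all loci lay between 11.13 and 11.18 on the 6 arrays, and the highest values between 15.36 and 15.43. Labelling spikes, RNAs added before labelling, had medians of 4.93 (Mex67, 42 °C), 5.04 (Npl3, 42 °C) and 5.09 (Npl3, 25 °C) on 3 arrays and of 6.28 (Mex67, 25 °C), 6.50 (no tag, 42 °C) and 6.57 (no tag, 25 °C) on the other 3. The 3′ probe set of actin exceeded the 5′ probe set by 0.80 to 1.35 on the first of these sets of arrays and by 0.53 to 0.56 on the second. For SRB4 the excess was 2.75 to 2.99 on the first set and 2.03 to 2.38 on the second. For SPT15 it was 1.02 to 1.09 and 0.89 to 1.07, so the sets overlapped there. The strains also differ in mating type genes: STE2, the alpha-factor receptor of a cells, was at 11.90 to 13.85 in the Mex67 and Npl3 precipitates and at 8.48 to 9.12 in the controls. Each precipitate came from its own strain entry, so strain and precipitated protein cannot be told apart in any comparison between precipitates.

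The 6 genes showed several shapes over the 6 arrays. The heated Mex67 precipitate was the highest array for all 6 genes, while the position of the Npl3 arrays differed from gene to gene. For APJ1, SIS1 and CUR1, the Npl3 arrays were below the control array of the same temperature, and for BTN2 they were above it. The plot of levels on each array shows these positions.

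**Figure D1:**
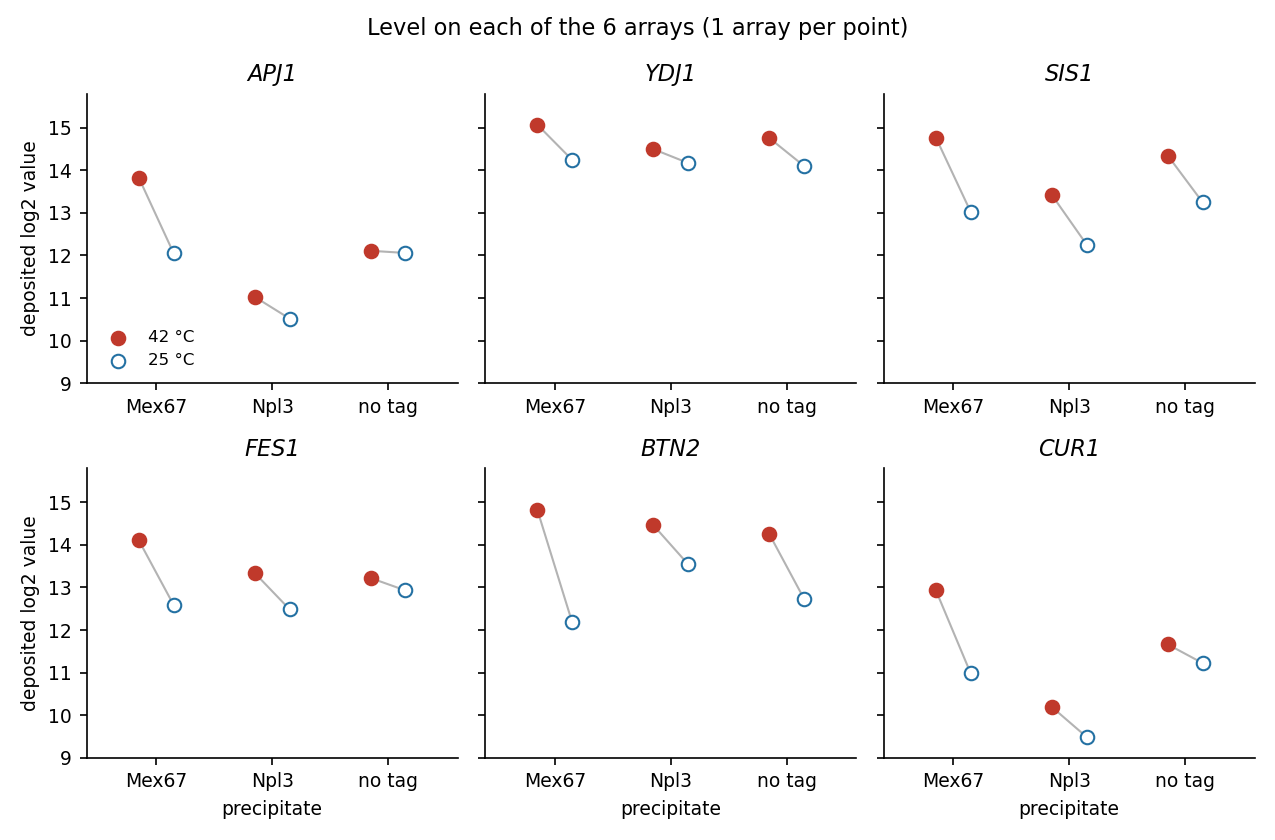
Deposited log2 value of each gene (vertical axis) in the Mex67, Npl3 and no tag precipitates, with filled points for 42 °C and open points for 25 °C, and 1 array per point. The heated Mex67 array is the highest in every panel, and APJ1 and CUR1 are lowest on the 2 Npl3 arrays.

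Among the J-proteins, APJ1 was at 13.82 at 42 °C and 12.05 at 25 °C in the Mex67 precipitate, at 11.03 and 10.52 in the Npl3 precipitate and at 12.11 and 12.06 in the no tag control. The heated Mex67 array stood apart from the other 5, the remaining Mex67 array was level with both controls, and both Npl3 arrays were lower than all of them. SIS1, the J-protein that works with Hsp70 on prion and nuclear substrates, was at 14.76 at 42 °C and 13.02 at 25 °C in the Mex67 precipitate, at 13.42 and 12.26 in the Npl3 precipitate and at 14.34 and 13.25 in the no tag control. All 3 heated arrays were above all 3 unheated arrays for SIS1, and within each temperature the Npl3 array was the lowest.

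YDJ1, the most general cytosolic J-protein, had values of 15.07 at 42 °C and 14.24 at 25 °C in the Mex67 precipitate, 14.49 and 14.17 in the Npl3 precipitate and 14.76 and 14.10 in the no tag control. Its heated arrays were again above its unheated ones, over a range of 0.97 in all, the narrowest of the 6 genes. On the heated Mex67 array YDJ1 lay 0.36 below the highest value of the array, and on the heated control 0.67 below it. SIS1 and BTN2 were also near the highest value on the heated Mex67 array, 0.66 and 0.61 below it. Whether the top of the scale limited the differences of these genes was not tested.

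FES1, the exchange factor, was at 14.10 at 42 °C and 12.59 at 25 °C in the Mex67 precipitate, at 13.34 and 12.49 in the Npl3 precipitate and at 13.22 and 12.93 in the no tag control. Its 3 heated arrays were above its 3 unheated ones, with the unheated control closest to the heated control.

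The related sorting factors differed from each other. BTN2 was at 14.82 at 42 °C and 12.18 at 25 °C in the Mex67 precipitate, at 14.46 and 13.54 in the Npl3 precipitate and at 14.25 and 12.73 in the no tag control. Its unheated Mex67 array was the lowest of the 6 and its heated Mex67 array the highest, so that the whole range of 2.63 lay inside the Mex67 pair. CUR1 was at 12.93 at 42 °C and 10.98 at 25 °C in the Mex67 precipitate, at 10.19 and 9.49 in the Npl3 precipitate and at 11.66 and 11.22 in the no tag control. Its pattern was that of APJ1: the heated Mex67 array highest, the controls in the middle and both Npl3 arrays lowest, with a range of 3.44 against 3.30 for APJ1.

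Heat was then taken as the difference between 42 °C and 25 °C in the same precipitate. In the Mex67 precipitate, 5 of the 6 genes were at least 2-fold higher at 42 °C, a limit that 15.4% of 5650 loci passed in that direction, and 0 were lower, where 12.2% of loci were. BTN2 was 6.21-fold higher, CUR1 3.86-fold, APJ1 3.41-fold, SIS1 3.34-fold and FES1 2.86-fold, and YDJ1 was 1.77-fold higher. The median of the 6 was 1.75 on the log2 scale, against 0.03 over all loci, whose 5th and 95th percentiles were -1.53 and 1.76. BTN2, CUR1 and APJ1 thus lay at or beyond the 95th percentile and SIS1 and FES1 inside it. The spike medians of this pair differed, at 4.93 for 42 °C and 6.28 for 25 °C, and their part in the heat differences was not tested.

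In the Npl3 precipitate, SIS1 was the only member at least 2-fold higher at 42 °C, by 2.24-fold, where 2.11% of 5634 loci were, and 0 members were lower, where 1.38% were. It stood at place 79 from the highest of these loci, a place closer to the top than its place 289 of 5650 in the Mex67 precipitate. BTN2 followed at 0.92 on the log2 scale, FES1 at 0.85 and CUR1 at 0.70, all above the 95th percentile of all loci of 0.68, while APJ1 was at 0.51 and YDJ1 at 0.33. Both arrays are on the same side of the spike split, at 5.04 for 42 °C and 5.09 for 25 °C. Among all loci the members stood at percentiles 82.7 to 98.6 here and at 79.9 to 98.5 in the Mex67 precipitate, where the differences of all loci were spread more widely.

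In the no tag control, 2 of the 6 were at least 2-fold higher at 42 °C, where 6.69% of 5647 loci were, and 0 lower, where 2.07% were. The higher ones were BTN2 by 2.87-fold and SIS1 by 2.14-fold. YDJ1 was at 0.66 on the log2 scale, CUR1 at 0.44 and FES1 at 0.29. APJ1 was at 0.05, place 2600 of 5647 from the highest, so its level in the mock precipitate was almost the same at both temperatures. The spike medians of this pair were 6.50 at 42 °C and 6.57 at 25 °C. Of all loci called in this comparison 76.4% were higher, and 64.3% after quantile normalization of the S. cerevisiae values, where BTN2 was at 1.57 and SIS1 at 1.11 on the log2 scale.

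**Figure D2:**
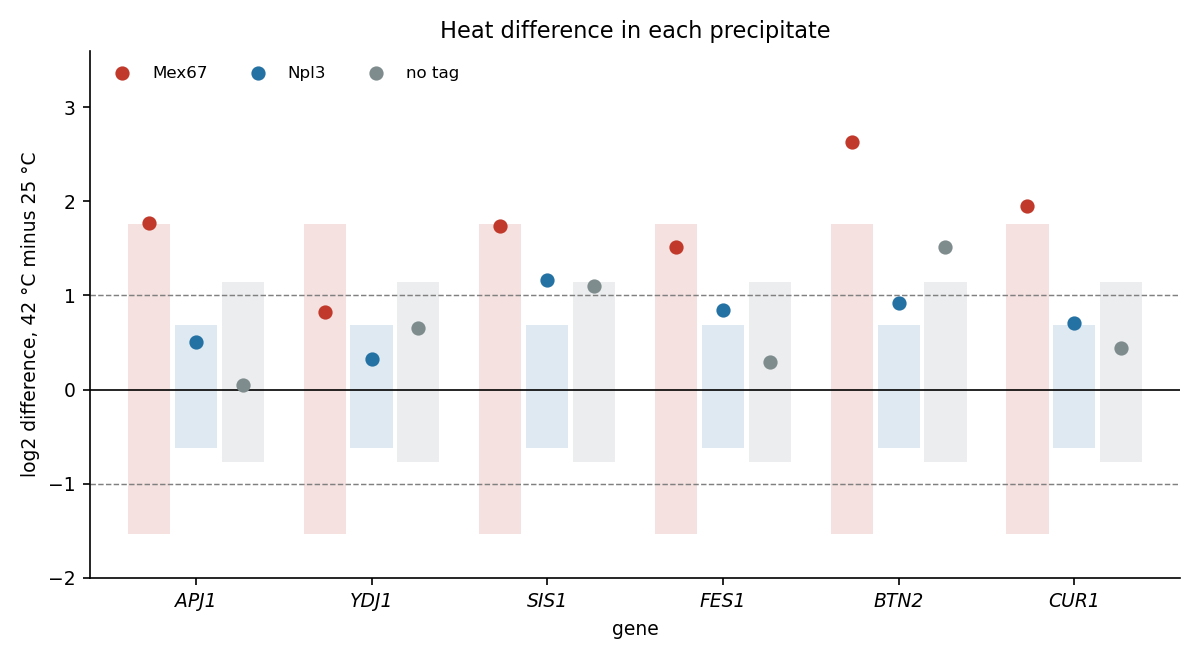
Log2 difference between 42 °C and 25 °C for each gene in the Mex67, Npl3 and no tag precipitates, 1 pair of arrays per point. Shaded bars span the 5th to 95th percentiles of all loci in that precipitate and dashed lines mark 2-fold. APJ1 is near 0 in the control and at 1.77 in the Mex67 precipitate, and SIS1 is at least 2-fold higher in all 3.

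The heat difference of each protein's precipitate was next set over that of the control. The Mex67 and Npl3 comparisons share the control arrays, so a likeness between them would not be independent. For Mex67 over the control, 4 of the 6 were at least 2-fold higher, where 5.06% of 5651 loci were, and 0 were lower, where 5.4% were. APJ1 was at 1.72, CUR1 at 1.51, FES1 at 1.22 and BTN2 at 1.11 on the log2 scale. These stood at places 38, 73, 153 and 198 from the highest. SIS1 was at 0.65 and YDJ1 at 0.17, and the median of the 6 was 1.17 against 0.00 over all loci. The heated Mex67 array had a spike median of 4.93, and the unheated Mex67 array one of 6.28. The heated and unheated controls were at 6.50 and 6.57, and the part of the spike split in these values was not tested.

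For Npl3 over the control, 0 of the 6 reached 2-fold in either direction, where 1.13% of 5649 loci were at least 2-fold higher and 4.3% lower. FES1 was at 0.56, APJ1 at 0.46, CUR1 at 0.27 and SIS1 at 0.07, while YDJ1 was at -0.33 and BTN2 at -0.60. After quantile normalization, 100 loci were higher and 190 lower in this comparison, against 64 and 243 with the deposited values, and still 0 members were called. APJ1, FES1, CUR1 and SIS1 were thus above the control's heat difference in both precipitates, SIS1 by only 0.07 in the Npl3 precipitate. BTN2 and YDJ1 were above it in the Mex67 precipitate, YDJ1 by only 0.17, and below it in the Npl3 precipitate. For BTN2 the heat difference was 2.63 in the Mex67 precipitate, 0.92 in the Npl3 precipitate and 1.52 in the control.

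The Mex67 heat difference over the Npl3 heat difference uses no control array. Here 3 of the 6 were at least 2-fold higher, where 12.5% of 5651 loci were, and 0 were lower, where 10.9% were. BTN2 was at 1.72, APJ1 at 1.26 and CUR1 at 1.24, and FES1, SIS1 and YDJ1 were at 0.66, 0.58 and 0.50. All 6 were above the median of all loci, 0.04. The 4 arrays cross the spike split through the unheated Mex67 array.

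At 42 °C the Mex67 precipitate held more of all 6 mRNAs than the control array, in relative terms. APJ1 was 3.28-fold higher and CUR1 2.41-fold, and these 2 passed the limit of 2-fold, as 6.97% of 5650 loci did, while 5.79% of loci and 0 members were at least 2-fold lower. FES1 was at 0.88 on the log2 scale, BTN2 at 0.56, SIS1 at 0.42 and YDJ1 at 0.31. The last 3 were within 1.18 of the highest value on the heated control array, 14.25 for BTN2, 14.34 for SIS1 and 14.76 for YDJ1. The spike medians of these arrays were 4.93 in the Mex67 precipitate and 6.50 in the control, and their part in the differences was not tested.

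At 25 °C the same comparison gave 0 members at least 2-fold higher or lower, where 0.746% and 0.657% of 5632 loci were. YDJ1 was at 0.14 and APJ1 at -0.0048, and the other 4 were lower in the Mex67 precipitate, SIS1 at -0.23, CUR1 at -0.24, FES1 at -0.34 and BTN2 at -0.55. BTN2 stood at place 298 from the lowest. The spike medians were 6.28 in the Mex67 precipitate and 6.57 in the control, on the same side of the split. For CUR1, FES1, SIS1 and BTN2, then, the Mex67 precipitate was below the control at 25 °C and above it at 42 °C. Their values at 25 °C all lay inside the 5th and 95th percentiles of all loci, -0.56 and 0.62.

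The Npl3 precipitate was below the control at both temperatures for APJ1, CUR1 and SIS1, and above it at both for BTN2. SIS1 stood at percentile 21.8 of all loci at 42 °C and 15.4 at 25 °C. At 42 °C CUR1 was at -1.47 and APJ1 at -1.08, so that 2 of the 6 were at least 2-fold lower and 0 higher, where 19.4% of 5648 loci were lower and 18.7% higher. SIS1 was at -0.92, YDJ1 at -0.26, FES1 at 0.12 and BTN2 at 0.21. At 25 °C CUR1 was at -1.73 and APJ1 at -1.54, again 2 of 6 at least 2-fold lower and 0 higher, where 15.1% of 5639 loci were lower and 18.1% higher. CUR1 stood at place 103 and APJ1 at place 204 from the lowest. SIS1 was at -0.99, just short of the limit, FES1 at -0.44, YDJ1 at 0.07 and BTN2 at 0.81.

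The 2 called members thus stand beside a background where many loci differed in the same direction. Among the coding length classes of the 6 members, that of CUR1 had the highest median difference from the control in both Npl3 comparisons. The class of APJ1 had the lowest in both. APJ1, at 1587 bp the longest coding sequence of the 6, belonged to a length class with a median of -0.52 at 42 °C, and CUR1, at 759 bp the shortest, in a class with a median of 0.30. With these medians subtracted, APJ1 was at -0.57 and CUR1 at -1.77 at 42 °C, and at -1.22 and -1.97 at 25 °C. CUR1 was therefore further below the control after the subtraction and APJ1 closer to it. At 25 °C the subtraction put BTN2 at 1.06 and SIS1 at -0.77. Spike medians were 5.04 and 5.09 in the Npl3 precipitates and 6.50 and 6.57 in the controls, and the part of the split in these values was not tested.

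**Figure D3:**
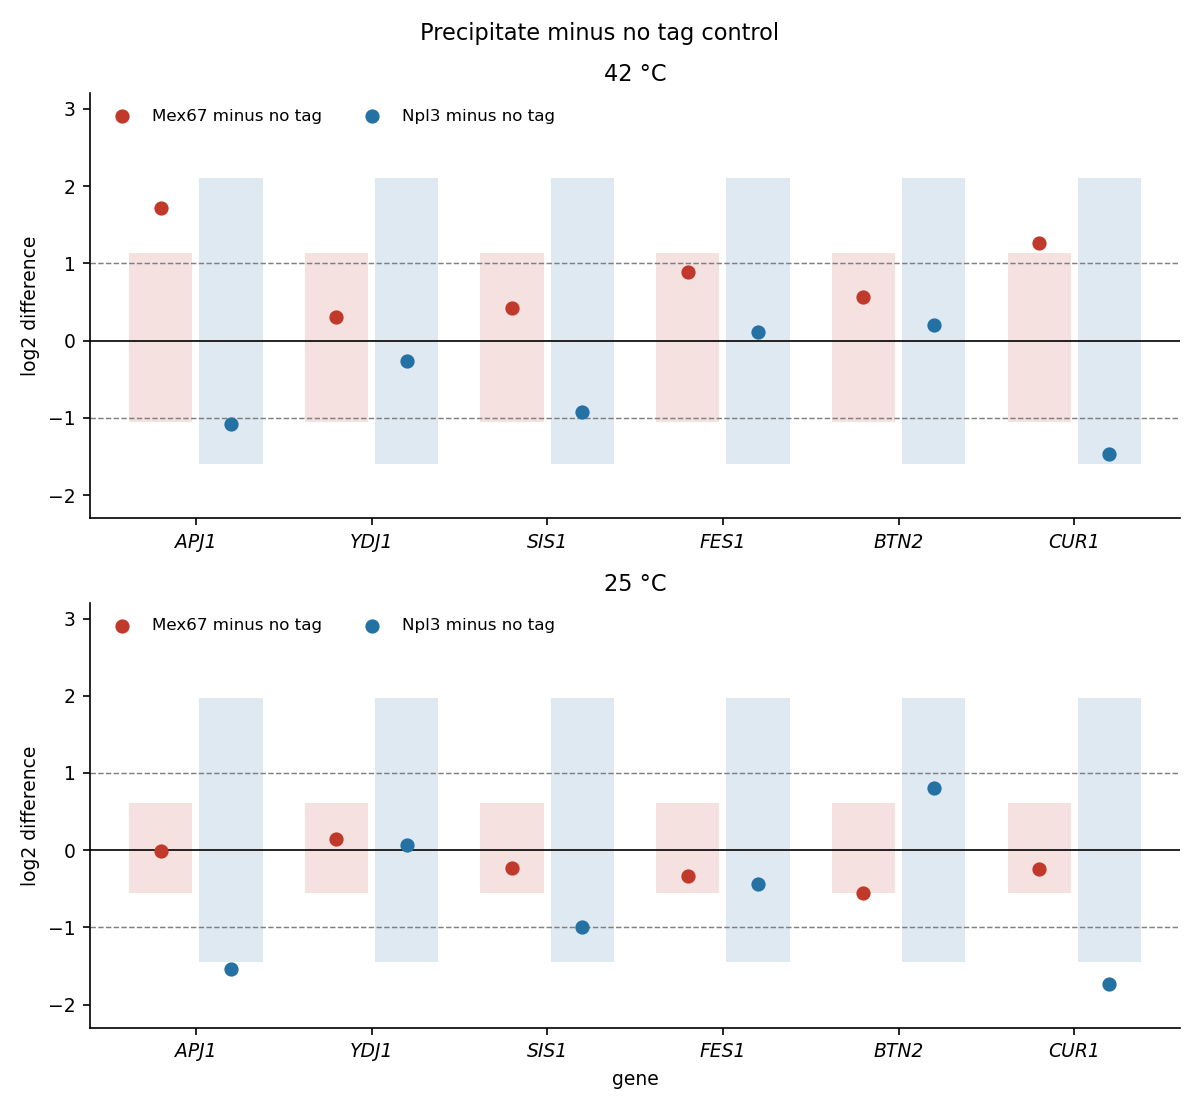
Log2 difference of the Mex67 and Npl3 precipitates from the no tag control at 42 °C (upper panel) and 25 °C (lower panel). Shaded bars span the 5th to 95th percentiles of all loci and dashed lines mark 2-fold. APJ1 and CUR1 are above the control in the heated Mex67 precipitate and below it in both Npl3 precipitates.

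Mex67 and Npl3 precipitates were also compared without the control, both on the same side of the spike split at 42 °C, with medians of 4.93 and 5.04. In the heated cells 3 of 6 members were at least 2-fold higher with Mex67, where 22.5% of 5649 loci were, and 0 were lower, where 20.2% were. APJ1 was 6.94-fold higher and CUR1 6.66-fold, at places 46 and 50 from the highest, and SIS1 was 2.54-fold higher. FES1 was at 0.77 on the log2 scale, YDJ1 at 0.57 and BTN2 at 0.36, against a median of 0.14 over all loci. The APJ1 and CUR1 differences were larger here than between Mex67 and the control, which follows from their Npl3 values lying below the control. Differences of all loci were also spread more widely, with a 95th percentile of 1.87 against 1.14 for Mex67 minus the control. After subtraction of the length trend, the differences between Mex67 and Npl3 were 2.21 for APJ1 and 3.26 for CUR1.

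At 25 °C APJ1 was 2.90-fold and CUR1 2.81-fold higher with Mex67, where 12.1% of 5641 loci were at least 2-fold higher. With the deposited values BTN2 was the only member on the other side, at -1.36, where 15.2% of loci were at least 2-fold lower. SIS1 was at 0.77, FES1 at 0.10 and YDJ1 at 0.07. The median of the length class of YDJ1 was 0.27, so YDJ1 fell below 0 with the length trend subtracted. BTN2 thus had the higher value with Mex67 at 42 °C, 14.82 against 14.46 with Npl3, and the lower value with Mex67 at 25 °C, 12.18 against 13.54 with Npl3. The 25 °C arrays lie on different sides of the spike split, at 6.28 for Mex67 and 5.09 for Npl3.

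The other genes of this network were described by 60 genes in 8 lists, all 60 measured. The lists were chosen for the role of their genes, but with earlier results of these data known. Over all loci the median was 0.03 for heat in the Mex67 precipitate and 0.00 for that difference over the control. Both differences use the heated and the unheated Mex67 arrays, with spike medians of 4.93 and 6.28, and the part of the spikes was not tested. Of 10 further J-proteins of the cytosol and nucleus, 1 was at least 2-fold higher with heat in the Mex67 precipitate and 1 lower, with a median of -0.10. HLJ1, a J-protein anchored in the ER membrane, was highest at 1.33 and ZUO1, the J-protein of the ribosome, lowest at -1.73. Over the control, 0 of these 10 reached 2-fold in either direction, with a median of -0.16. For 9 J-proteins of the ER and mitochondria, the Mex67 heat difference had a median of -0.31, with MDJ1, the mitochondrial DnaJ homologue, at 1.85 and MDJ2 at -1.42. Over the control MDJ1, at 1.03, was the only one of the 9 past 2-fold.

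FES1 can be set beside 6 other exchange factors of Hsp70 proteins. With heat in the Mex67 precipitate, SSE2, a heat-inducible Hsp110, was at 2.64, SIL1 of the ER at 1.32, MGE1 of mitochondria at -1.26 and SNL1, the lowest, at -2.20. Over the control SSE2 was at 1.47 and was the only one of the 6 at least 2-fold higher, with 0 lower and a median of 0.16. The FES1 value of 1.22 thus lay between SSE2 and the rest. In the Npl3 precipitate SNL1 was at 1.45 over the control, where its control pair differed by -1.75 with heat and its Npl3 pair by -0.30.

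The inducible Hsp70s that J-proteins serve had high heat differences in all 3 precipitates. SSA3 was at 2.98 in the Mex67 precipitate, 2.91 in the Npl3 precipitate and 2.64 in the control. SSA4 was at 3.90 in the Mex67 precipitate and 3.78 in the control, with heated levels of 15.20 and 14.85 near the top of the scale. Of 7 cytosolic Hsp70s, 0 were at least 2-fold higher or lower for Mex67 heat over control heat, and the list's median was -0.16. The 12 Hsp90s and co-chaperones also had 0 past 2-fold there and a median of 0.01, with HSP82 highest at 0.82 and CPR7 lowest at -0.93. HSP104, the disaggregase, was at 0.67, HSP42 at 0.64 and HSP26 at -0.89 in the same comparison. HSP82, HSP42 and HSP26 were also near the top of the scale, at 15.09, 15.04 and 15.04 on the heated Mex67 array. On the heated control they were at 14.74, 14.74 and 14.96. Whether the top of the scale limited the differences in these lists was not tested. The median of the 6 members, 1.17, was above the median of each of the 8 lists, which ran from -0.19 to 0.64. Both the members and the lists were chosen with earlier results of these data known, so the lists are no independent reference.

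Ubiquitin ligases that mark misfolded proteins and yeast prion proteins were the remaining lists. Of 7 ligases, HUL5 at 1.02 was the only one at least 2-fold higher for Mex67 heat over control heat, followed by UBR1 at 0.60, and RSP5 was lowest at -0.54. Of 6 prion protein genes, MOT3 at 1.93 and SWI1 at 1.41, both for regulators of transcription, were at least 2-fold higher, and URE2, the protein behind [URE3], was at 0.13 and SUP35 at 0.02. All 6 prion protein genes were above 0 there, with a median of 0.61.

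**Figure D4:**
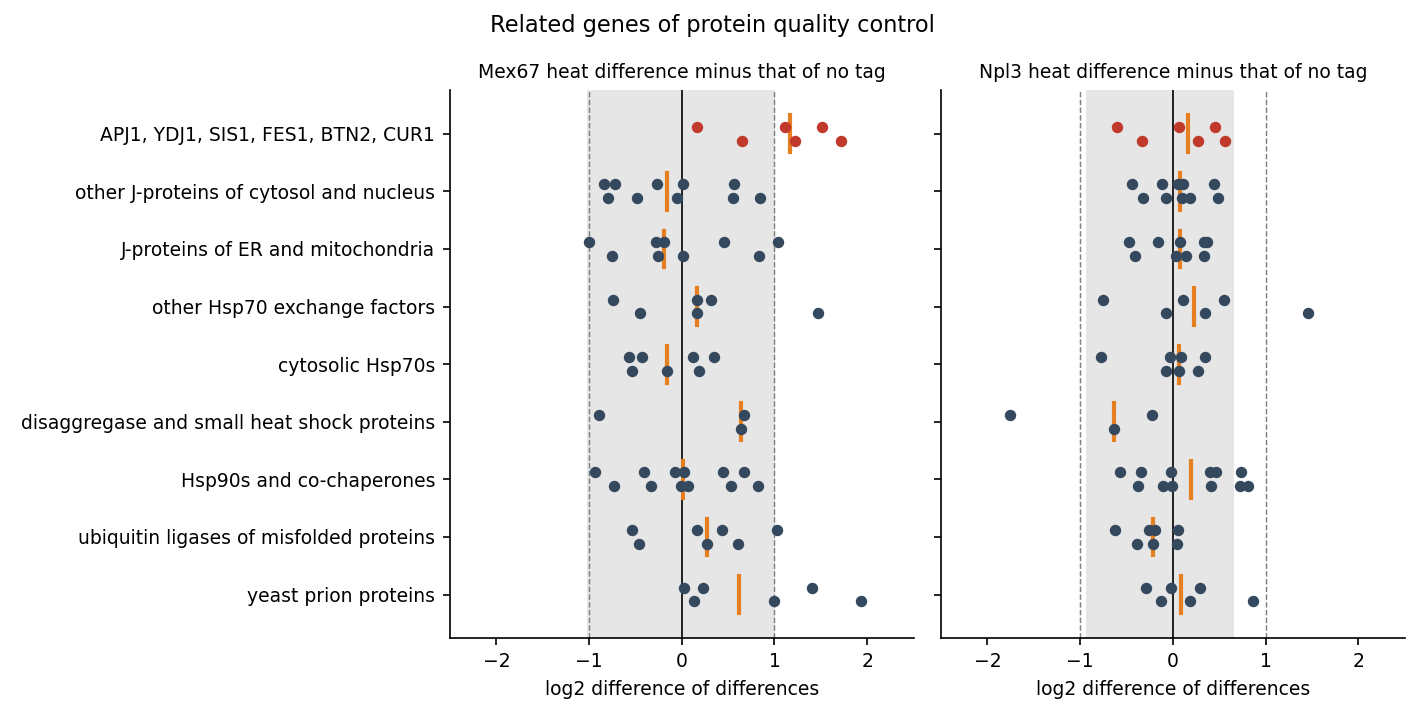
Log2 difference of heat differences, Mex67 over no tag (left) and Npl3 over no tag (right), for the 6 genes and for 8 lists of related genes. Each point is a gene, orange bars are list medians, the grey band spans the 5th to 95th percentiles of all loci and dashed lines mark 2-fold. The 6 genes have the highest median in the left panel, at 1.17, and a median of 0.17 in the right panel.

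Genes with the most similar pattern were sought among 5067 named loci above the floor on all 6 arrays. Likeness was the root mean square difference over the 6 arrays between profiles centred on their own means, on the log2 scale. APJ1 and CUR1 were close to each other, at 0.20, and 1 candidate locus was closer to APJ1 than CUR1 was. The 3 nearest to APJ1 were TAH11, a DNA replication licensing factor, at 0.17, AIT1 at 0.24 and ZPR1, a zinc finger protein, at 0.24. The same 3 genes were nearest to CUR1, at 0.17, 0.19 and 0.18, while the median candidate was at 1.05 from APJ1 and 1.10 from CUR1.

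BTN2 did not share this shape. It was 1.19 from CUR1 and 1.22 from APJ1, further than the median candidate was from BTN2, at 1.08, in both cases. Its nearest gene was HSP42, the small heat shock protein that gathers cytosolic aggregates, at 0.21. HSP42 was at 15.04 at 42 °C and 12.62 at 25 °C in the Mex67 precipitate, at 14.55 and 13.41 in the Npl3 precipitate and at 14.74 and 12.96 in the control, so that its unheated Npl3 array, like that of BTN2, was above the other unheated arrays. The transcription factor genes CAT8 at 0.22 and SMP1 at 0.26 came next.

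For SIS1, MHP1 at 0.11 and NTH1, a trehalase, at 0.17 were among the 3 nearest. FES1 was nearest to RCH1, at 0.12, with SRL4 at 0.14 and GPA2, a G protein subunit of glucose signalling, at 0.15. YDJ1 had the smallest distances, 0.05 to PPZ1, a protein phosphatase, and to YEL1 and 0.06 to CUP2, a copper-responsive regulator. The median candidate was 0.58 from YDJ1, whose profile varied least. Profiles of 6 arrays are short, and all distances come from the same arrays.

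**Figure D5:**
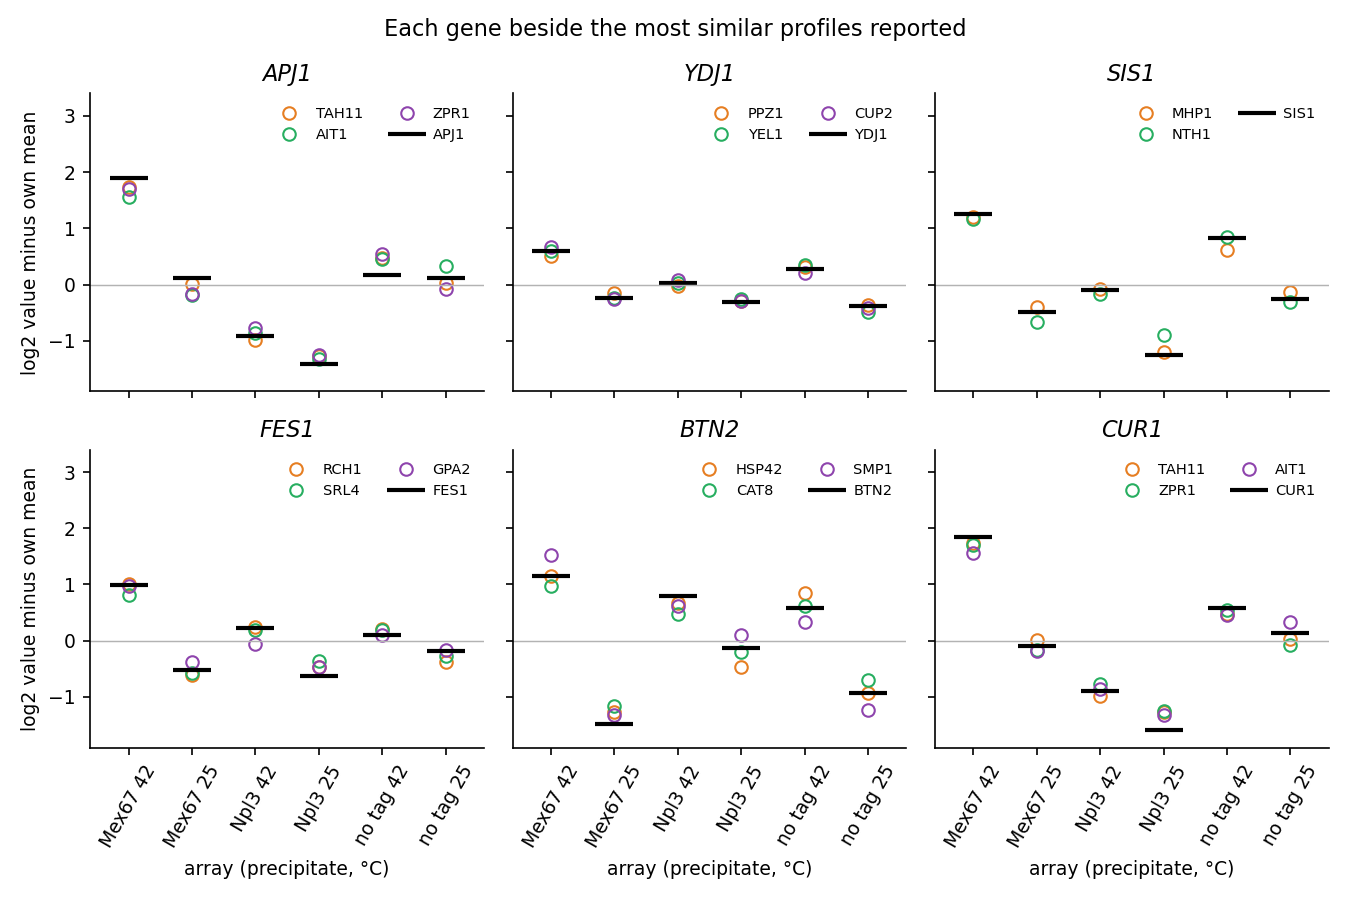
Log2 value minus the gene's own mean on each of the 6 arrays, for each of the 6 genes (black bars) and its 3 most similar loci, of which 2 are shown for SIS1 (open circles). The same loci, TAH11, AIT1 and ZPR1, follow APJ1 and CUR1, and HSP42 follows BTN2.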

How the data were processed

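RNA co-precipitated with Mex67, Npl3 or no tag was measured on 6 arrays, 1 per group, and no test was made. The authors' table holds normalized log2 values for each probe set on every array. It was made with affy, per the submitters' processing notes; version, background correction and normalization method were not given in the sources used. Columns were matched to samples through the strain number and the S or US ending. Of 10928 probe sets, 5716 were for S. cerevisiae, 4999 for S. pombe and 213 were controls. Probe sets of a locus were averaged with Python 3.11.15 and pandas 2.3.3, and 5646 of 5667 loci were named through the RefSeq table of assembly R64. The files name no genome build, so no coordinates are given.

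A locus was counted when it lay above the 95th percentile of S. pombe probe sets, 5.00 to 5.12, on at least 1 array of the comparison and differed at least 2-fold. Lengths are coding lengths, in 20 classes for the trend. The number of arrays limits the precision. Of the 4999 S. pombe probe sets, 0 to 18 reached 2-fold in a comparison. These probe sets lie at background, so that count does not measure the spread of loci well above the floor. The 6 members and the 8 lists were chosen with earlier results of these data known. Named genes were the members, the 3 loci most like each (1 of those of SIS1 is not reported here), and at most the 2 highest and 2 lowest genes of a list in a comparison. Alternatives were centring on S. pombe or on S. cerevisiae medians, quantile normalization, subtraction of the length trend, no floor, and omission of probe sets that match several transcripts.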

Additional observations from a re-analysis of the deposited data

Results flagged for a closer look

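BTN2 was lower in the Mex67 than in the Npl3 precipitate at 25 °C and higher at 42 °C, with log2 differences of 0.36 at 42 °C and -1.36 at 25 °C. It also lay above the control in the Mex67 precipitate at 42 °C, at 0.56, and below it at 25 °C, at -0.55. The same opposite signs for Mex67 minus no tag were found for CUR1, at 1.27 and -0.24, for FES1, at 0.88 and -0.34, and for APJ1, at 1.71 and -0.0048, the last of which is close to 0 and was at 0.055, with no opposite sign, after subtraction of the length trend. Each case was picked out because the contrast had opposite signs at 42 °C and 25 °C and the 2 values were at least 2-fold apart. The gap between the 2 temperatures is the same quantity as the difference of heat differences given in the Results. These cases are therefore another view of members already called there, not further findings. Each rests on 1 array per group, and none of the differences was tested.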

How the results depend on the processing

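No replicate could be left out, since each group has 1 array. A fit of heat with the 3 precipitates as pairs was not made, since the genes were chosen with their heat differences known. Over 6 alternatives and 12 comparisons, 425 of 432 single-gene values kept their sign and their side of the 2-fold limit, and 0 values past the limit changed sign. That count includes 72 values with no floor and 72 with probe sets of several transcripts left out. These 2 alternatives could not move a member, since all 6 lay above the floor and have probe sets of a single transcript. Centring moved a member's value by at most 0.06 and quantile normalization by at most 0.16. Subtraction of the length trend moved one by up to 0.59. With the length trend subtracted, the members at least 2-fold lower in the Npl3 precipitate than in the control at 42 °C numbered 1 in place of 2, since APJ1 was at -0.57, among 643 loci in place of 1096. At 25 °C 1 member in place of 0 was at least 2-fold higher, BTN2 at 1.06, and 536 loci in place of 853 were lower. With quantile normalization, 100 loci in place of 64 were at least 2-fold higher for Npl3 heat over control heat, and SIS1 was at -1.04 in the Npl3 precipitate against the control at 25 °C. The 7 cases that moved include values near 0 that changed sign under the length trend. APJ1 went to -0.045 for heat in the control and FES1 to -0.086 for Npl3 against the control at 42 °C. YDJ1 changed sign for Mex67 against Npl3 at 25 °C. YDJ1, SIS1 and BTN2 had values near the top of the scale on the heated Mex67 array, and whether that limited their differences was not tested.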
